A study of Mus musculus with 2 samples.

Results

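The genes described here are 9 transcription factors that build and maintain the microglial lineage: Sall1, Mef2a, Mef2c, Maf, Spi1, Irf8, Runx1, Cebpa and Cebpb. They were taken by symbol from the 31053 genes of the count tables, and all 9 had a row in both libraries. The cells were cortical microglia of male 5xFAD hemizygous mice on the C57BL/6J strain, an amyloid model in which mutant human transgenes are expressed in neurons from a Thy1 promoter. Cells were sorted as SYTOX-negative singlets positive for CD45 and CD11b and negative for Ly6G, and their RNA was read cell by cell on the 10x Genomics Chromium droplet platform, in which each transcript copy carries a UMI (molecular identifier). In the photoconversion group, mice received 5 uL of the photosensitiser Visudyne into the cisterna magna, and then 5 steps of transcranial red light of 689 nm, which ablates meningeal lymphatic vessels. In the Visudyne group, mice received the same injection alone. Both groups carried the transgene, were first injected at 4 months of age, were injected again 3 weeks later and were taken 3 weeks after that, at 5.5 months. Each group was 1 library of 3 pooled mice, so no replicate check was possible and every difference is one between these libraries. Intervals in parentheses are 95% intervals and cover counting error only.

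These factors act in layers. PU.1, encoded by Spi1, opens the enhancers of all macrophages and binds many of them together with IRF8, RUNX1 and the C/EBP proteins. SALL1, the MEF2 proteins and c-MAF act on that base: SALL1 is a zinc-finger regulator that sets microglia apart from other tissue macrophages under TGF-beta signalling, MEF2 proteins bind A/T-rich sites and restrain inflammatory genes, and c-MAF is a leucine-zipper factor of mature macrophages. C/EBP-alpha belongs to the resting myeloid program, and C/EBP-beta is an inducible factor of inflammatory and monocyte programs. In amyloid models microglia near plaques lose homeostatic genes such as P2ry12 and gain disease-associated genes such as Cst7.

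Barcodes were kept at 200 or more detected genes and no more than 10% mitochondrial UMIs, 317 of 2000 in the photoconversion library and 555 of 2000 in the Visudyne library. Their median depths were 3410 and 2670 UMIs, and no barcode was shared between the kept sets. A kept cell was called Cst7-dominant when it had more Cst7 than P2ry12 UMIs, and P2ry12-dominant in the opposite case. The photoconversion library held 157 Cst7-dominant cells (49.5%, 43.9 to 55.2%), 133 P2ry12-dominant cells and 27 with equal counts. The Visudyne library held 207 Cst7-dominant cells (37.3%, 33.3 to 41.5%), 290 P2ry12-dominant cells and 58 with equal counts. Of all kept cells, 58 photoconversion and 115 Visudyne cells lay within 1 UMI of the boundary. The classes differed in depth: median UMIs per cell were 5852 in Cst7-dominant and 2739 in P2ry12-dominant cells of the photoconversion library, and 4655 and 2206.5 in those of the Visudyne library. They also differed in Malat1, a nuclear noncoding RNA, at 7561 CPM (UMIs scaled to a total of 1000000) in Cst7-dominant against 24621 CPM in P2ry12-dominant photoconversion cells, and 6456 against 24797 CPM in those Visudyne cells. All 10 microglia markers were detected in each class of each library. Their summed level was 36583 CPM in Cst7-dominant and 53447 CPM in P2ry12-dominant photoconversion cells, and 37602 and 56701 CPM in those classes of the Visudyne library.

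In GENCODE vM21 (GRCm38) all 9 are protein-coding genes. Sall1 lies at chr8:89027235-89044162 (minus strand), Mef2a at chr7:67231163-67372858 (minus), Mef2c at chr13:83504034-83667080 (plus), Maf at chr8:115682942-115707794 (minus) and Spi1 at chr2:91082390-91115756 (plus). Irf8 lies at chr8:120736358-120756694 (plus), Runx1 at chr16:92601466-92826149 (minus), Cebpa at chr7:35119293-35121928 (plus) and Cebpb at chr2:167688915-167690418 (plus). Promoters of 7 of the 9 genes, in 13 start-site windows, were found in RefSeq (GRCm38.p6), each running from 250 bases before to 50 bases after an annotated start. The farthest upstream window of 4 genes is shown, because Mef2a, Mef2c and Sall1 were lower in Cst7-dominant cells of both libraries and Runx1 holds sites of its own family. Capitals mark matches, on either strand, to the MEF2 letters TAAAAATA, the PU.1 letters GAGGAA. In the Runx1 window they mark the RUNX letters TGTGGT, which read in reverse complement on the strand shown. The windows are chr7:67372809-67373108 (minus strand) for Mef2a, chr13:83503784-83504083 (plus strand) for Mef2c, chr16:92826025-92826324 (minus strand) for Runx1 and chr8:89044113-89044412 (minus strand) for Sall1.
Mef2a: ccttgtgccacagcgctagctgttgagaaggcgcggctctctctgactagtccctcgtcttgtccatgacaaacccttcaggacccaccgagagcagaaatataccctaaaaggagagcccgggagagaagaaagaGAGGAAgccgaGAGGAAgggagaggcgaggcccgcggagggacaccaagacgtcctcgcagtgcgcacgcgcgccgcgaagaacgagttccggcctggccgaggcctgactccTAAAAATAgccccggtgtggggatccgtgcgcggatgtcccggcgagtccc
Mef2c: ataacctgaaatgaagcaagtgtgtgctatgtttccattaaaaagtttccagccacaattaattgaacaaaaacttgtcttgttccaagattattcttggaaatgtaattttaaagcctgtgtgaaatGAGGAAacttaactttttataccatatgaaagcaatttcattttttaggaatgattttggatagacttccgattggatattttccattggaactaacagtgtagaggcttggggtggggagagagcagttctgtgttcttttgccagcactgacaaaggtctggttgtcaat
Runx1: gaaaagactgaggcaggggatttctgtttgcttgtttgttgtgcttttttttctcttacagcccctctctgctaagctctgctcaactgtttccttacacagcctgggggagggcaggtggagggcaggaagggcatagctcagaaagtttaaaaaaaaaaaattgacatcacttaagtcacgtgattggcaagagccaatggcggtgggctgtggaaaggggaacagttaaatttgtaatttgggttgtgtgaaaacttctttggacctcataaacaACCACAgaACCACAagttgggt
Sall1: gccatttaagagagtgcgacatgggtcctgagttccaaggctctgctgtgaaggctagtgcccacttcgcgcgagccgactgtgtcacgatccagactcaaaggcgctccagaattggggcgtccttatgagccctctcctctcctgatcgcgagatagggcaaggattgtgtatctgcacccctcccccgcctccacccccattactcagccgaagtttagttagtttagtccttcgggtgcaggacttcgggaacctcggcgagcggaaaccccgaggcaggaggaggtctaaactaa
The MEF2 letters stood in the Mef2a window and in 2.72% of all 32851 mouse promoter windows. The PU.1 letters stood in the Mef2a window, in 2 of the 3 Mef2c windows and in the other Runx1 window, and in 28.3% of all windows. The RUNX letters stood in the Runx1 window shown and in 16.8% of all windows. The C/EBP letters TTGCNNAA were in none of the 13 windows and in 10.8% of all windows. No motif searched overlapped another in the windows shown. These letters are matches in sequence only, and no binding was measured here.

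Over all kept cells the 9 factors stood at nearly the same level in both libraries. Summed, they had 3670 UMIs (2021 CPM) in the photoconversion library and 4938 UMIs (2038 CPM) in the Visudyne library, a ratio of 0.991 (0.950 to 1.03). None of the 9 reached a ratio of at most 0.8 or of at least the inverse of 0.8, folds that 38.2% of the 8823 genes with at least 20 UMIs passed in one direction or the other. Of the 1520 genes with at least 300 UMIs, as 8 of the members had, 12.4% did. All 9 members had at least 20 UMIs in every comparison described. The members' median log2 ratio was -0.03, against -0.06 over all those genes, and each member's own interval included a ratio of 1. With cells thinned to 1000 UMIs 4 members were at or below 0.8, as were 26.6% of genes with at least 20 UMIs there. Sall1 was then above the inverse fold, at 1.47 (0.875 to 2.47). With cells weighing the same 3 members were at or below 0.8, a setting for which no share over all genes was computed. Spi1 was one of the 4 in thinned cells, at 0.674 (0.492 to 0.915). Among cells of 2000 to 8000 UMIs 2 members were at or below 0.8, Spi1 at 0.796 (0.661 to 0.954) and Cebpb at 0.712 (0.525 to 0.958), and among cells with Malat1 at 5000 to 20000 CPM 1 was, Cebpb at 0.755 (0.582 to 0.976).

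Among the factors that mark microglia, Sall1 had 157 UMIs (86.4 CPM) in the photoconversion library and 204 UMIs (84.2 CPM) in the Visudyne library, a ratio of 1.03 (0.828 to 1.27). Mef2c had 979 UMIs (539 CPM) after photoconversion and 1294 UMIs (534 CPM) with Visudyne alone, a ratio of 1.01 (0.928 to 1.10). Both libraries were thus at one level for these genes within counting error, with Mef2c, which had more UMIs, the more closely bounded. Mef2a stood at 127 CPM after photoconversion and 135 CPM with Visudyne alone, a ratio of 0.939 (0.790 to 1.11). Maf, with 298 and 433 UMIs, stood at 164 CPM after photoconversion and 179 CPM with Visudyne alone, a ratio of 0.918 (0.790 to 1.07).

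The factors shared with other macrophages lay in the same range. Spi1 stood at 307 CPM after photoconversion and 339 CPM with Visudyne alone, a ratio of 0.907 (0.813 to 1.01). Irf8, the partner of PU.1, stood at 438 CPM after photoconversion and 404 CPM with Visudyne alone, a ratio of 1.08 (0.986 to 1.19). Runx1 was the least precise member, with 75 UMIs after photoconversion and 102 with Visudyne alone and a ratio of 0.981 (0.718 to 1.33). Cebpa had a ratio of 1.05 (0.917 to 1.20), from 214 CPM after photoconversion and 203 CPM with Visudyne alone.

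Cebpb, the inducible C/EBP factor, stood at 104 CPM (188 UMIs) after photoconversion and 117 CPM (284 UMIs) with Visudyne alone, a ratio of 0.883 (0.730 to 1.06). In the Visudyne library 48 of these UMIs came from 5 barcodes in which monocyte markers exceeded those of every other type, where Cebpb stood at 1884 CPM and Spi1 at 942 CPM. A single barcode held 18 of the 24 Spi1 UMIs there, so that Spi1 level is mostly its own. The photoconversion library had no such barcode, and its 6 monocyte markers summed to 35 UMIs (19.3 CPM) over all kept cells, against 244 UMIs (101 CPM) in the Visudyne library. Sall1 and Maf had 0 UMIs in these 5 barcodes. A count of 0 there allowed up to 145 CPM, above the 84.2 CPM of Sall1 over all kept Visudyne cells and below the 179 CPM of Maf. In microglia-marked barcodes, which had at least 3 microglia marker UMIs and fewer UMIs of other types' markers together, 305 after photoconversion and 531 with Visudyne alone, Cebpb had 103 and 96.3 CPM and its ratio was 1.07 (0.876 to 1.30). The direction of the Cebpb difference thus turned once 12 photoconversion and 24 Visudyne barcodes were left out.

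**Figure D1:**
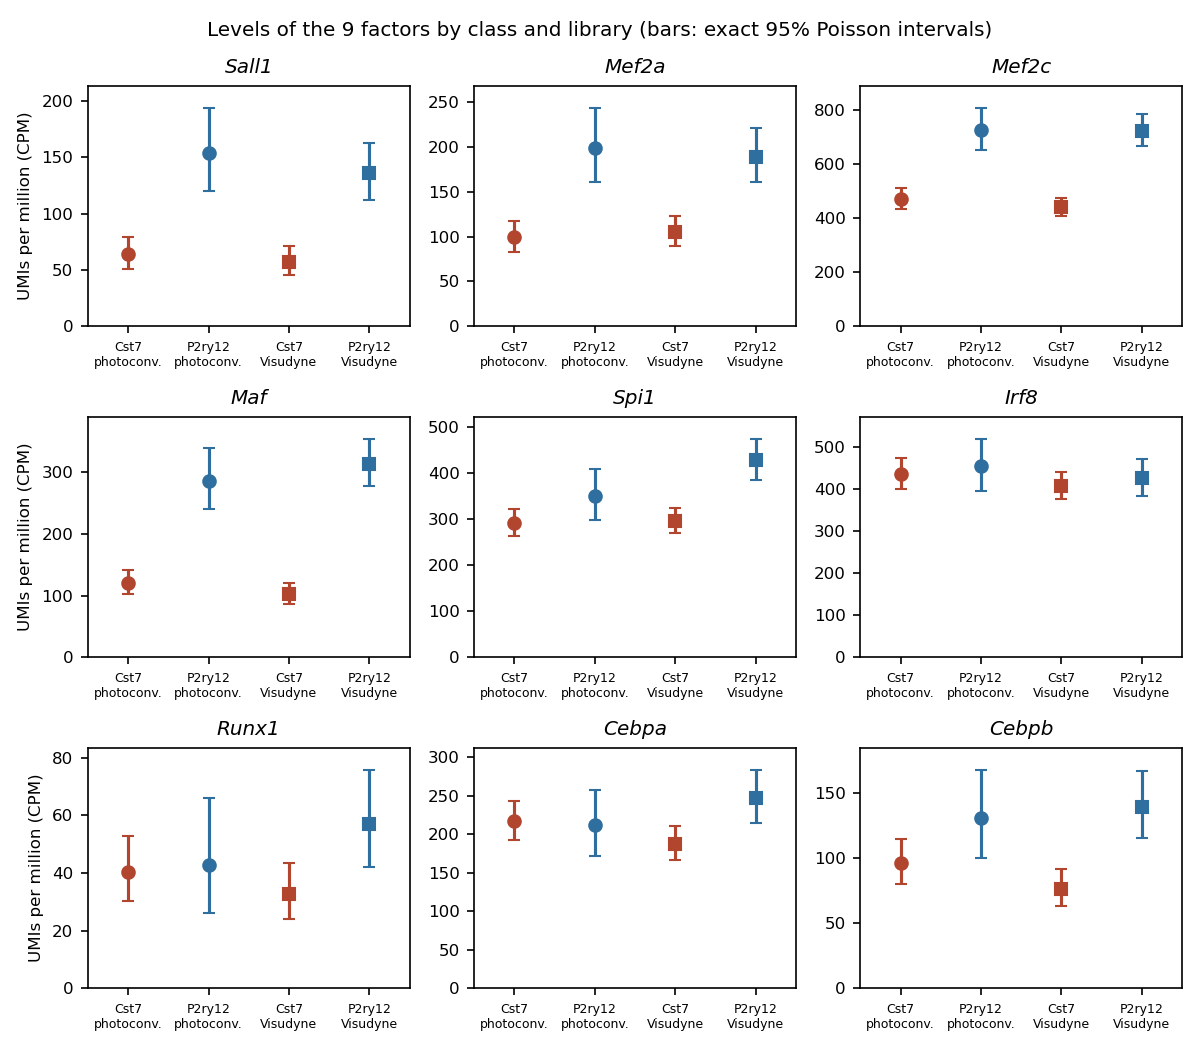
Level of each factor in CPM (y axes from 0) in Cst7-dominant (red) and P2ry12-dominant cells (blue) of the photoconversion (circles) and Visudyne (squares) libraries, with exact 95% Poisson intervals. Sall1, Mef2a, Mef2c and Maf sit lower in Cst7-dominant cells of both libraries with intervals apart, whereas the 4 levels of Irf8 lie between 407 and 453 CPM with overlapping intervals.

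Between the cell classes the factors differed more than between the libraries. Summed, they stood at 1838 CPM in Cst7-dominant and 2556 CPM in P2ry12-dominant cells of the photoconversion library, a ratio of 0.719 (0.671 to 0.771). With Visudyne alone they stood at 1706 CPM in Cst7-dominant and 2661 CPM in P2ry12-dominant cells, a ratio of 0.641 (0.605 to 0.679). The ratio was at most 0.8 for 5 of 9 members in the photoconversion library and for 8 of 9 in the Visudyne library. Over all genes with at least 20 UMIs, 47.1% and 51.5% reached the same fold, so the count in the photoconversion library was near the background and that in the Visudyne library above it. Sall1, Mef2a, Mef2c, Maf and Cebpb reached it in both libraries, as did 34.1% of the 6188 genes measured in both. Under median-of-ratios scaling the member count was 4 in the photoconversion library, where Cebpb stood at 0.873 (0.638 to 1.21). It was 6 in the Visudyne library, and no share over all genes was computed under that scaling. In cells of 2000 to 8000 UMIs the member count was 6 in the photoconversion and 9 in the Visudyne library. Of all genes with at least 20 UMIs there, 47.1% and 55.3% reached the fold. In cells with Malat1 at 5000 to 20000 CPM the member counts were 2 and 7, against 38.5% and 44.8% of such genes. Genes with few UMIs made up much of the background over all kept cells. Among genes with at least 300 UMIs, 23.9% reached the fold in the photoconversion library, as did 1 of the 4 members with that many UMIs. In the Visudyne library 29.0% of such genes did, as did 5 of 6 such members. The members' median log2 ratio was -0.44 in the photoconversion and -0.80 in the Visudyne library, against -0.26 and -0.35 over all genes with at least 20 UMIs. For members with at least 300 UMIs it was -0.16 and -0.62, against 0.23 and 0.10 over all genes with that many.

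Sall1 showed one of the lowest class ratios. In the photoconversion library it had 84 UMIs (64.1 CPM, 51.2 to 79.4) in Cst7-dominant cells and 72 UMIs (154 CPM, 120 to 194) in P2ry12-dominant cells, a ratio of 0.416 (0.300 to 0.579). With Visudyne alone Sall1 had 84 UMIs (57.3 CPM) in Cst7-dominant cells and 114 UMIs (136 CPM) in P2ry12-dominant cells, a ratio of 0.422 (0.315 to 0.564). Its 4 levels thus fell into a pair of low Cst7-dominant and a pair of high P2ry12-dominant values, with overlapping intervals inside each pair. The 10 richest cells held 31 of the 84 Cst7-dominant and 36 of the 72 P2ry12-dominant Sall1 UMIs after photoconversion. With Visudyne alone they held 35 of 84 and 36 of 114. The intervals do not allow for such clumping. The ratio was 0.229 (0.109 to 0.442) after photoconversion and 0.329 (0.173 to 0.580) with Visudyne alone among cells of 2000 to 8000 UMIs, where the classes were closer in depth but Malat1 stood at 7998 CPM in Cst7-dominant and 26666 CPM in P2ry12-dominant photoconversion cells. Among cells with Malat1 between 5000 and 20000 CPM it was 1.01 (0.557 to 1.95), from 61 Cst7-dominant and 34 P2ry12-dominant photoconversion cells, and 0.545 (0.354 to 0.840), from 73 and 81 Visudyne cells. In that Malat1 band the median depths were 12700 UMIs in Cst7-dominant and 4094 UMIs in P2ry12-dominant photoconversion cells, and 10285 and 4369 UMIs in those Visudyne cells. The parts that Malat1 content and depth have in the class differences were not tested further.

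The MEF2 factors were also lower in Cst7-dominant cells. Mef2a stood at 99.2 CPM in Cst7-dominant and 199 CPM in P2ry12-dominant photoconversion cells, a ratio of 0.499 (0.379 to 0.658). In the Visudyne library the ratio was 0.555 (0.442 to 0.697), from 105 and 189 CPM in the same classes. Mef2c, the MEF2 factor best known as a brake on microglial inflammatory responses, stood at 473 CPM in Cst7-dominant and 727 CPM in P2ry12-dominant photoconversion cells, a ratio of 0.650 (0.568 to 0.744). Its ratio was 0.608 (0.544 to 0.681) with Visudyne alone, from 441 and 725 CPM. For both genes the intervals of the 2 classes stayed apart in each library, and the P2ry12-dominant levels of the 2 libraries could not be told apart. Among cells with Malat1 at 5000 to 20000 CPM, the Mef2a ratios were 0.886 (0.560 to 1.45) after photoconversion and 0.751 (0.531 to 1.07) with Visudyne alone, and those of Mef2c were 0.858 (0.692 to 1.07) and 0.774 (0.659 to 0.910). Across 272 photoconversion and 439 Visudyne cells thinned to 1000 UMIs, Malat1 was the gene most like each of them among 1520 genes. Its correlation was 0.280 and 0.253 with Mef2a and 0.289 and 0.325 with Mef2c, over cells that share a library and its RNA quality.

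Maf had the lowest class ratio with Visudyne alone and kept an interval below 1 in each library under every restriction of the cells for which an interval was computed. It stood at 121 CPM (159 UMIs) in Cst7-dominant and 287 CPM (134 UMIs) in P2ry12-dominant photoconversion cells, a ratio of 0.424 (0.334 to 0.537). With Visudyne alone Maf stood at 103 CPM in Cst7-dominant and 314 CPM in P2ry12-dominant cells, a ratio of 0.328 (0.266 to 0.402). Among cells of 2000 to 8000 UMIs the ratios were 0.395 (0.258 to 0.591) after photoconversion and 0.322 (0.212 to 0.474) with Visudyne alone. Among cells with Malat1 at 5000 to 20000 CPM they were 0.605 (0.414 to 0.898) and 0.411 (0.308 to 0.548). The genes most like Maf across thinned cells were Rab3il1 (correlations of 0.156 and 0.184), Ltc4s (0.165 and 0.144) and Scoc (0.252 and 0.141), all weak in these sparse counts.

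**Figure D2:**
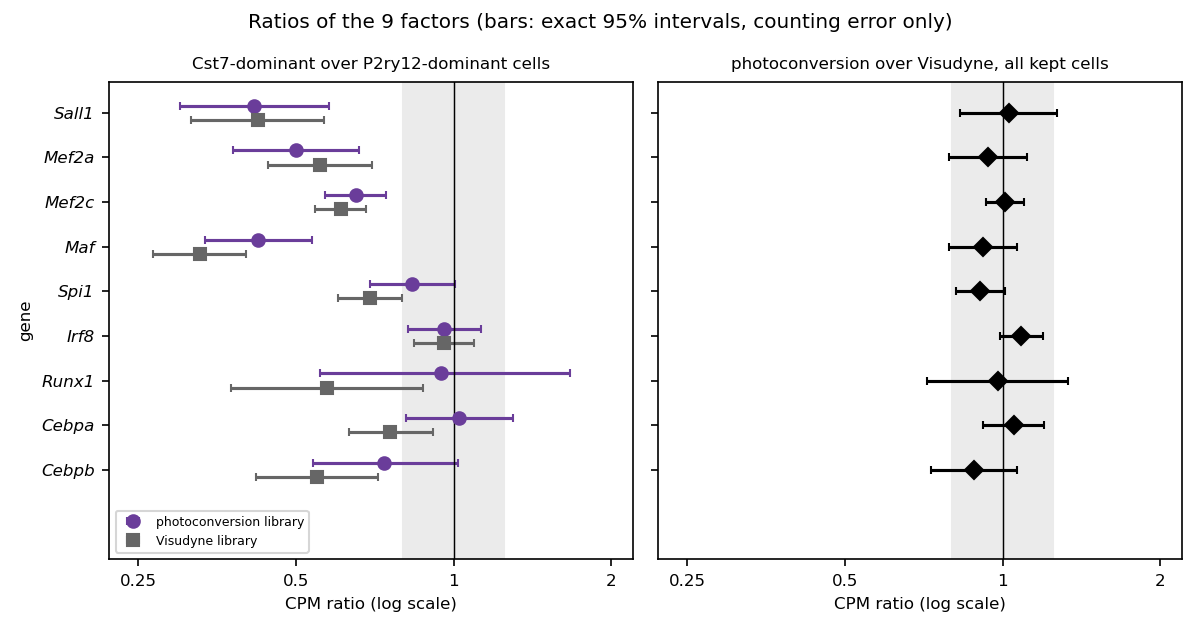
CPM ratios of the 9 factors on a log scale with exact 95% intervals, Cst7-dominant over P2ry12-dominant cells at left (photoconversion library above in purple, Visudyne library below in grey) and photoconversion over Visudyne at right. The grey band spans ratios between 0.8 and its inverse. All 9 library ratios lie between 0.883 and 1.08, while class ratios of Sall1 and Maf lie between 0.328 and 0.424.

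The factors of the general macrophage program had class ratios nearer to 1 in the photoconversion library, and more varied ones with Visudyne alone. Irf8 stood at 435 CPM in Cst7-dominant and 453 CPM in P2ry12-dominant photoconversion cells, a ratio of 0.960 (0.818 to 1.13). With Visudyne alone the ratio was 0.958 (0.839 to 1.10), from 407 CPM in Cst7-dominant and 425 CPM in P2ry12-dominant cells. Its 4 levels could not be ordered beyond counting error. Spi1 stood at 292 CPM in Cst7-dominant and 351 CPM in P2ry12-dominant photoconversion cells, a ratio of 0.831 (0.691 to 1.005). In those classes with Visudyne alone it stood at 297 and 428 CPM (ratio 0.692, 0.600 to 0.798). Runx1 had 53 UMIs (40.5 CPM) in Cst7-dominant and 20 UMIs (42.8 CPM) in P2ry12-dominant photoconversion cells, a ratio of 0.946 (0.556 to 1.67). With Visudyne alone it had 48 UMIs in each class, 32.7 CPM in Cst7-dominant and 57.1 CPM in P2ry12-dominant cells, a ratio of 0.573 (0.376 to 0.873).

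The distance of these shared factors from a ratio of 1 depended on how the classes were scaled. Scaling by the median ratio over genes in place of the total UMIs moved all class ratios upward, by 0.24 on the log2 scale in the photoconversion and 0.34 in the Visudyne library. Under it the class ratios were 1.14 (0.969 to 1.34) after photoconversion and 1.21 (1.06 to 1.39) with Visudyne alone for Irf8, and 0.984 and 0.878 for Spi1. Those of Runx1 were 1.12 and 0.726. Sall1 (0.493 and 0.535), Mef2a (0.591 and 0.704), Mef2c (0.769 and 0.772) and Maf (0.501 and 0.416) stayed below 1, with intervals that did not reach it.

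The C/EBP factors had higher class ratios in the photoconversion than in the Visudyne library, with intervals that overlapped. Cebpa stood at 217 CPM in Cst7-dominant and 212 CPM in P2ry12-dominant photoconversion cells, a ratio of 1.02 (0.812 to 1.30). With Visudyne alone it stood at 187 CPM in Cst7-dominant and 248 CPM in P2ry12-dominant cells, a ratio of 0.757 (0.630 to 0.911), and at 0.961 (0.799 to 1.16) under median-of-ratios scaling. Cebpb stood at 96.2 CPM in Cst7-dominant and 130 CPM in P2ry12-dominant photoconversion cells, a ratio of 0.737 (0.539 to 1.02). With Visudyne alone it stood at 76.3 CPM in Cst7-dominant and 139 CPM in P2ry12-dominant cells, a ratio of 0.548 (0.419 to 0.717). In those Visudyne classes the monocyte markers summed to 7.50 and 83.3 CPM, and among microglia-marked barcodes the Cebpb ratio was 0.633 (0.478 to 0.840). Cebpb overlaps Tmem189 on the opposite strand (83 UMIs after photoconversion and 114 with Visudyne alone). Whether counting used the strand is not given in the sources used here, so reads of the 2 genes cannot be told apart.

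Within a class the libraries were again close. In Cst7-dominant cells the summed factors stood at 1838 CPM after photoconversion and 1706 CPM with Visudyne alone, a ratio of 1.08 (1.02 to 1.14). Only Cebpb passed the fold there, with a ratio of 1.26 (0.969 to 1.64), as did 41.0% of 7384 genes. In P2ry12-dominant cells the summed factors stood at 2556 CPM after photoconversion and 2661 CPM with Visudyne alone, a ratio of 0.960 (0.894 to 1.03). Only Runx1 passed the fold there, at 0.749 (0.421 to 1.29) from 20 and 48 UMIs, as did 47.0% of 5936 genes. Spi1 had a ratio of 0.819 (0.676 to 0.987) in P2ry12-dominant cells and 0.983 (0.855 to 1.13) in Cst7-dominant cells. Of its 360 UMIs in P2ry12-dominant Visudyne cells, 18 came from a single cell. The maximum was also 18 in the Visudyne barcodes with monocyte markers above all others, and 15 in microglia-marked Visudyne barcodes. The Spi1 ratio within this class was not computed without such barcodes.

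**Figure D3:**
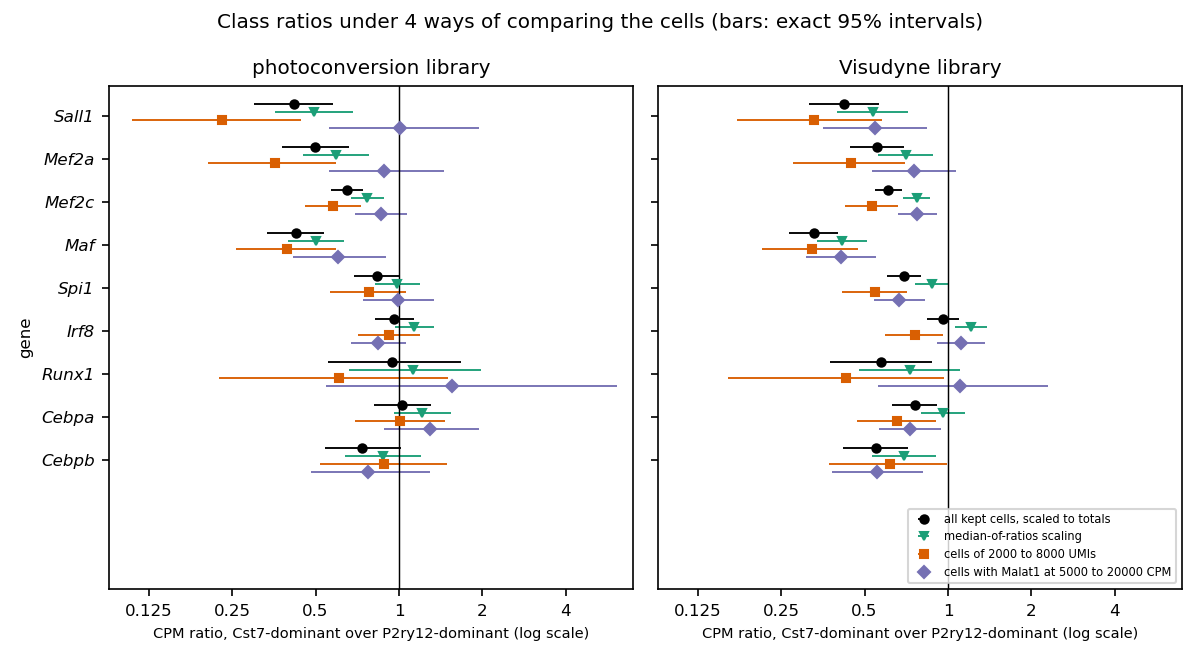
Class ratios (Cst7-dominant over P2ry12-dominant, log scale) of the 9 factors with exact 95% intervals in the photoconversion library (left) and Visudyne library (right), for all kept cells and for 3 other ways of comparing them. The Maf intervals stay below 1 throughout, whereas Sall1 lies at 0.229 in the depth band and 1.01 in the Malat1 band of the photoconversion library.

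Detection per cell was compared at equal depth by thinning each cell to 1000 UMIs, which left out 45 photoconversion and 116 Visudyne cells. A UMI of Mef2c was then found in 36.6% of Cst7-dominant (28.7 to 45.1%) and 50.4% of P2ry12-dominant (41.1 to 59.7%) photoconversion cells. With Visudyne alone Mef2c was found in 27.9% of Cst7-dominant (21.5 to 35.0%) and 52.6% of P2ry12-dominant cells (46.0 to 59.2%). The unthinned shares of Mef2c were 70.7% and 79.7% after photoconversion and 68.6% and 75.2% with Visudyne alone. Mef2a was found in 6.34% of Cst7-dominant and 20.2% of P2ry12-dominant thinned photoconversion cells, and in 6.56% and 21.1% of those Visudyne cells, with intervals apart in each library. Unthinned, its shares were 42.0% and 42.1% after photoconversion and 39.1% and 37.2% with Visudyne alone. The class difference of Mef2a thus appeared in levels and thinned shares but not in the shares of cells of unequal depth.

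Maf was found in 13.4% of Cst7-dominant and 27.7% of P2ry12-dominant thinned photoconversion cells, against 49.0% and 47.4% unthinned. With Visudyne alone its thinned shares were 10.9% in Cst7-dominant and 20.3% in P2ry12-dominant cells, against 34.8% and 45.5% unthinned. Sall1 was found in 10.6% of Cst7-dominant (6.03 to 16.8%) and 10.9% of P2ry12-dominant (5.95 to 18.0%) thinned photoconversion cells, so its class difference was not detectable at that depth there. With Visudyne alone Sall1 was found in 3.83% and 10.3% of the thinned cells of these classes. Its unthinned shares were 32.5% and 31.6% after photoconversion and 24.6% and 25.5% with Visudyne alone. Irf8 was found in 30.3% of Cst7-dominant and 26.1% of P2ry12-dominant thinned photoconversion cells, and in 32.8% and 31.0% of those Visudyne cells.

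A thinned Cst7-dominant cell held on average 1.44 of the 9 factors after photoconversion and 1.32 with Visudyne alone. A thinned P2ry12-dominant cell held 1.87 after photoconversion and 2.04 with Visudyne alone. Correlations between the 36 pairs of factors across thinned cells ran from -0.11 to 0.15 in the photoconversion library and from -0.09 to 0.10 in the Visudyne library, too weak in such sparse counts to read as a pattern. In the 9 photoconversion and 10 Visudyne barcodes where astrocyte and vascular markers exceeded microglia markers, Sall1, Spi1, Irf8 and Runx1 had 0 UMIs in both libraries. A count of 0 there allowed up to 235 and 157 CPM, above the levels of Sall1 and Runx1 over all kept cells. Those barcodes had median depths of 749 and 1117.5 UMIs, against 3561 and 2714 UMIs in microglia-marked barcodes. Mef2c, which vascular cells and neurons also express, had 3 and 9 UMIs in them.

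**Figure D4:**
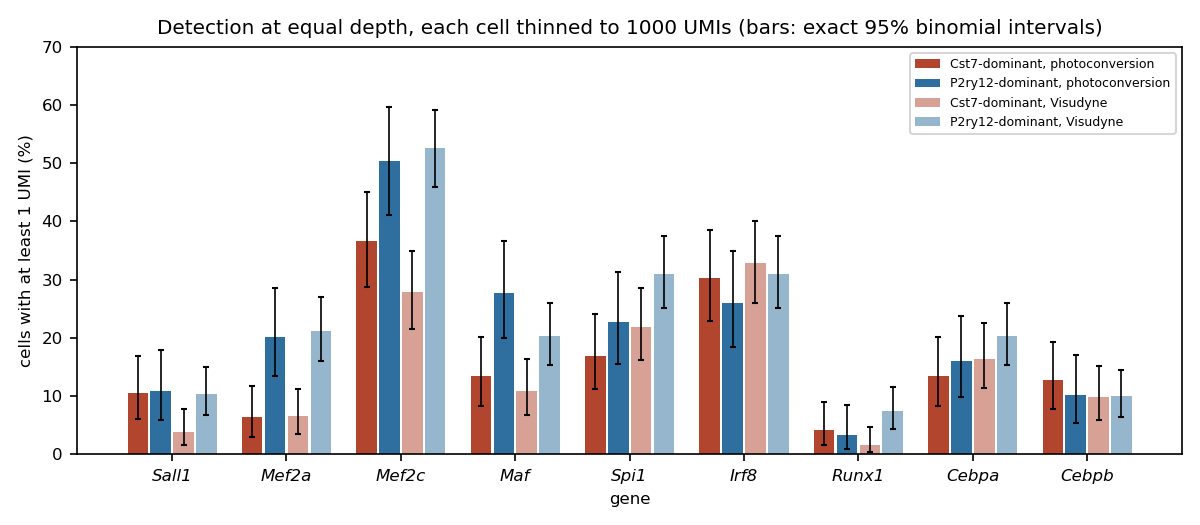
Share of cells with at least 1 UMI of each factor after thinning every cell to 1000 UMIs, in Cst7-dominant (red) and P2ry12-dominant (blue) cells of the photoconversion (dark) and Visudyne (pale) libraries, with exact 95% binomial intervals. Mef2a stands at 6.34% and 6.56% in Cst7-dominant against 20.2% and 21.1% in P2ry12-dominant cells, and Irf8 between 26.1% and 32.8% in all 4 groups.

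Genes that microglia lose without Sall1 had lower values in Cst7-dominant cells. Without P2ry12, which set the classes, all 11 listed genes had class ratios of at most 0.8 in both libraries, against 47.1% and 51.5% of all genes. Their median log2 ratio was -1.03 in the photoconversion and -1.12 in the Visudyne library. Levels of P2ry12 itself describe the choice of classes: 889 CPM in Cst7-dominant and 3585 CPM in P2ry12-dominant photoconversion cells, and 905 and 3826 CPM in those Visudyne cells. Sparc, a matricellular protein, stood at 1734 CPM in Cst7-dominant and 2768 CPM in P2ry12-dominant photoconversion cells, a ratio of 0.626 (0.585 to 0.671). Its ratio was 0.631 (0.596 to 0.667) with Visudyne alone, from 1776 CPM in Cst7-dominant and 2815 CPM in P2ry12-dominant cells. Between the libraries 10 of the 11 were below 1, as were 57.7% of all genes, and 3 of 11 were at most 0.8, near the 23.1% of all genes, while Sall1 itself stood at 1.03. Fcrls, an Fc receptor-like molecule, stood at 1658 CPM after photoconversion and 2083 CPM with Visudyne alone, a ratio of 0.796 (0.760 to 0.833). Beside these library values, Cst7-dominant cells made up 49.5% of kept cells after photoconversion and 37.3% with Visudyne alone. Within Cst7-dominant cells the list's median log2 library ratio was -0.20, against -0.01 over all genes with at least 20 UMIs there. Within P2ry12-dominant cells it was -0.11, against -0.05 over all genes. Over all kept cells it was -0.28, against -0.06 over all genes. The part that the class shares have in these library values was not tested.

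Of 15 genes known as targets of PU.1 and IRF8 in macrophages, 8 in the photoconversion and 9 in the Visudyne library had class ratios of at most 0.8, near the shares of 47.1% and 51.5% over all genes. In each library 3 lay at or above the inverse fold, which 22.5% and 17.7% of all genes reached. Tyrobp, the signalling adaptor of TREM2, was one of these, at 12517 CPM in Cst7-dominant and 5805 CPM in P2ry12-dominant photoconversion cells, a ratio of 2.16 (2.07 to 2.25). Its Visudyne ratio was 2.26 (2.19 to 2.34). Ctss, a lysosomal cysteine protease, went the other way with ratios of 0.724 (0.701 to 0.749) and 0.772 (0.751 to 0.794). The list thus held genes on both sides while Irf8 stood at 0.960 and 0.958.

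Most measured relatives in the ETS and IRF families had class ratios of at most 0.8, a fold that 47.1% of all genes reached in the photoconversion and 51.5% in the Visudyne library. Of the ETS family, to which PU.1 belongs, 7 of 9 measured genes in the photoconversion and 9 of 11 in the Visudyne library had class ratios of at most 0.8. Fli1 stood at 55.0 CPM in Cst7-dominant and 113 CPM in P2ry12-dominant photoconversion cells, a ratio of 0.485 (0.335 to 0.705), and had a ratio of 0.475 (0.347 to 0.649) with Visudyne alone. Of the IRF family 6 of 8 and 7 of 9 measured genes reached that fold, among them Irf3, which drives interferon induction after nucleic acid sensing, at 0.446 (0.273 to 0.734) and 0.421 (0.286 to 0.616). Irf2, an antagonist of IRF1, stood at 0.669 (0.466 to 0.971) and 0.509 (0.378 to 0.685). Of the MEF2 relatives and partners only Mapk14, a kinase that activates MEF2 proteins, reached it among 3 measured in each library, at 0.525 (0.272 to 1.04) and 0.590 (0.355 to 0.983). Tle3, a corepressor that RUNX proteins recruit, had 11 UMIs in Cst7-dominant and 20 in P2ry12-dominant photoconversion cells, a ratio of 0.196 (0.0850 to 0.430), and 14 and 22 UMIs with Visudyne alone, a ratio of 0.364 (0.172 to 0.745).

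Cebpd, an inducible C/EBP relative, had 32 UMIs (24.4 CPM) in Cst7-dominant and 38 UMIs (81.3 CPM) in P2ry12-dominant photoconversion cells, a ratio of 0.301 (0.182 to 0.494). With Visudyne alone its ratio was 0.258 (0.174 to 0.377), and between the libraries it stood at 39.1 CPM after photoconversion and 57.8 CPM with Visudyne alone, a ratio of 0.677 (0.501 to 0.906). The small MAF gene Maff had 21 UMIs in Cst7-dominant and 0 in P2ry12-dominant photoconversion cells, and 22 and 3 UMIs in those Visudyne cells, so no fold is given. Among the SALL relatives and TGF-beta effectors, 4 of 6 and 4 of 7 measured genes had class ratios of at most 0.8, small counts near the 47.1% and 51.5% of all genes. Skil, a repressor of SMAD signalling, had class ratios of 0.651 (0.437 to 0.983) and 0.490 (0.346 to 0.691), and the related Ski a library ratio of 1.34 (1.10 to 1.64) from 113 CPM after photoconversion and 84.2 CPM with Visudyne alone.

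Other lineage and state factors went in both directions. Zeb2, a zinc-finger factor that helps keep macrophage identity, stood at 100 CPM in Cst7-dominant and 218 CPM in P2ry12-dominant photoconversion cells, a ratio of 0.458 (0.351 to 0.600), and at 0.445 (0.355 to 0.559) with Visudyne alone. Hif1a, the hypoxia-inducible factor that drives glycolytic genes, stood at 223 CPM in Cst7-dominant and 62.0 CPM in P2ry12-dominant photoconversion cells, a ratio of 3.59 (2.45 to 5.46). Its ratio was 3.10 (2.35 to 4.14) with Visudyne alone, while its library ratio was 1.08 (0.932 to 1.26). Bhlhe41, a repressor expressed in microglia, differed between the libraries instead, at 184 CPM after photoconversion and 130 CPM with Visudyne alone, a ratio of 1.41 (1.21 to 1.66). Of the 33 factors on this list, 12 of 25 measured in the photoconversion (48.0%) and 16 of 30 in the Visudyne library (53.3%) had class ratios of at most 0.8, near the 47.1% and 51.5% of all genes.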

How the data were processed

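The authors deposited raw UMI counts per gene and barcode for each library, for which the submitters' processing notes name bcl2fastq, Cell Ranger (3.0.2 per the file headers) and the mm10 build. A table of the whole series was not used. Kept cells summed to 1816177 UMIs after photoconversion and 2422711 with Visudyne alone. UMIs were summed per library and class and scaled to total UMIs (CPM). Sums carry exact Poisson, ratios exact conditional binomial and shares exact Clopper-Pearson intervals at 95%, computed with scipy 1.17.1. Only the ratio intervals were tried on simulated counts, drawn from the Poisson model that they assume. That simulation left out the clumping of UMIs in single cells, so it cannot show how the intervals hold under it. With 1 library per group no test was made. Folds of all genes used 0.5 UMIs added to each sum and a minimum of 20 UMIs. Doublets were not removed. Members and gene lists were chosen with earlier results of these data known. From each list up to 4 genes were taken, by most UMIs, that passed the fold between libraries, or in the same direction in both class comparisons. Most are named above, and the values of some are not reported here. Likeness used genes with at least 300 UMIs, as the lower of both libraries' Pearson correlations. Alternatives covered cell filters, scaling, thinning, cell weights and class definitions. The depth and Malat1 bands were chosen after seeing the data.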

Additional observations from a re-analysis of the deposited data

Results flagged for a closer look

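A factor was listed here when its ratio lay above 1 in one setting and below 1 in the other. None of these differences was tested, and with 1 library per group none could be. The library ratio, photoconversion over Visudyne, in Cst7-dominant and in P2ry12-dominant cells was 0.945 and 1.05 for Mef2a, 1.18 and 0.912 for Maf, and 1.24 and 0.749 for Runx1. It was 1.16 and 0.855 for Cebpa and 1.26 and 0.937 for Cebpb. The interval of each of these library ratios included 1. The class ratio of Cebpa, Cst7-dominant over P2ry12-dominant, was 1.02 in the photoconversion library and 0.757 in the Visudyne library, of which the second had an interval below 1.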

How the results depend on the processing

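No paired analysis was possible because each group is 1 library, and for the same reason no replicate could be left out. The summed library ratio was 1.04 under median-of-ratios scaling, 0.930 with cells thinned to 1000 UMIs, 0.906 with cells weighing the same and 1.08 within Cst7-dominant cells. The summed class ratio in the photoconversion library was 0.851 under median-of-ratios scaling, 0.647 in cells of 2000 to 8000 UMIs and 0.892 in cells with Malat1 at 5000 to 20000 CPM. In the Visudyne library it was 0.813, 0.543 and 0.743 under these settings, 0.595 when thinned, 0.579 with equal weights and 0.686 with classes set after thinning. In the Malat1 band the class ratio turned to 1.01 for Sall1 in the photoconversion library and to 1.10 for Runx1 in the Visudyne library. Of 297 member ratios under alternatives, 245 stayed within the interval of the reported value and 37 lay on the other side of 1. Apart from the 2 just named, one that had been at most 0.8 did so, Cebpb in the photoconversion classes at 1.22 when thinned. Scaling moved the library comparison by 0.07 on the log2 scale. Depth limits Runx1 most, and intervals do not cover variation between mice.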

Other observations

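Barcodes outside the kept cells also carried these factors. In the 1608 photoconversion barcodes with fewer than 200 detected genes the 9 factors summed to 162 UMIs (1306 CPM, 1112 to 1523), against 238 UMIs (1621 CPM, 1422 to 1841) in 1340 such Visudyne barcodes. Sall1 had 13 UMIs (105 CPM, 55.8 to 179) in the photoconversion and 32 UMIs (218 CPM, 149 to 308) in the Visudyne barcodes of this kind, and Spi1 had 29 UMIs (234 CPM, 157 to 336) and 57 UMIs (388 CPM, 294 to 503). These are named for their wide differences, though their intervals overlapped. Mef2a (113 and 116 CPM) and Mef2c (226 and 232 CPM) were close. Irf8 (282 and 252 CPM) and Runx1 (40.3 and 34.1 CPM) were higher in the photoconversion barcodes. In barcodes with enough genes but over 10% mitochondrial UMIs, Mef2c stood at 427 CPM (307 to 577) in 75 photoconversion and 677 CPM (528 to 855) in 105 Visudyne barcodes. Its intervals overlapped, and there Spi1 was alike (163 and 164 CPM) and Cebpa higher after photoconversion (163 and 116 CPM).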
